A study of Mus musculus with 6 samples.

Results

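The genes of the proteasome were followed in sorted T follicular helper (Tfh) cells with and without Bob1. Members were all genes of the authors' comparison table whose symbol is Psma, Psmb, Psmc, Psmd or Psme followed by a number, which gave 42 genes. Of these, 40 had a mean of at least 1 FPKM (fragments per kilobase, scaled to the mapped fragments of the library) over the 6 libraries and were tested among 9948 such genes, out of 22916 genes found in all libraries. They comprised 13 genes of the 20S core, 20 of the 19S particle, 4 activators and 3 immunosubunits. *Psmb5* stands in the table in a row named jointly with a microRNA gene, so it is not among the 42. It is given here only as the constitutive partner of *Psmb8*.

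Both groups of mice carried floxed Bob1 alleles and the FoxP3GFP/DTR reporter. The Bob1KO libraries came from FoxP3GFP/DTRCD4Cre/+Bob1fl/fl mice, in which Cre under the *Cd4* promoter removed *Pou2af1*, the gene of the Oct coactivator Bob1, from all T cells that had turned on this promoter and not from Tfh cells alone. The control libraries, labelled WT, came from FoxP3GFP/DTRCD4+/+Bob1fl/fl mice, so that the control lacked Cre as well as the deletion. The mice, sex-matched littermates of 6 to 12 weeks, received 100 µg of NP-CGG in complete Freund's adjuvant by the intraperitoneal route. Splenic cells without GFP and B220 and with CD3, CD4, CXCR5 and PD-1 on their surface were sorted on day 7, in 3 experiments per group with 10 to 12 mice each, and each library was made from 0.7 ng of RNA.

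The proteasome degrades proteins marked with ubiquitin. Its barrel, the 20S core, has outer rings of alpha subunits that gate the entry and inner rings of beta subunits, some of which cut peptide bonds. The 19S particle binds, unfolds and feeds in the substrate with its ring of ATPases. In lymphocytes and in cells exposed to interferon-gamma, the catalytic beta subunits are replaced in new particles by the immunosubunits *Psmb8*, *Psmb9* and *Psmb10*, which favour peptides that fit MHC class I molecules, and the activators *Psme1* and *Psme2* form an alternative cap. Proteasome activity is also needed for T-cell activation and proliferation.

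The targeted gene was read first. *Pou2af1* had 46.1, 32.5 and 34.4 FPKM in the WT libraries and 1.16, 0.237 and 0.317 FPKM in the Bob1KO libraries, a log2 fold change of -4.65 (standard error, SE, 0.257, limma adjusted P = 0.00336 by the Benjamini-Hochberg method). The 8 Tfh markers, *Cxcr5*, *Pdcd1* and *Bcl6* among them, were all tested and none passed the adjusted P. Their log2 fold changes were 4 below and 4 above 0. *Cd4* was higher in each Bob1KO library, at 414 to 466 FPKM against 300 to 379 in WT (log2 fold change 0.36, SE 0.128, limma adjusted P = 0.910). The groups overlapped for the other Tfh markers. *Foxp3* was listed at 0 in all 6 libraries. The summed FPKM of 9 myeloid genes, led by *S100a8* and *S100a9*, ranged from 548 to 1014 in WT and from 82.8 to 4473 in Bob1KO, with the highest sum in Bob1KO replicate 1. Depth was estimated at about 20700000 to 29200000 fragments per library. Because these were bulk samples, fewer cells of a type and less RNA per cell cannot be told apart.

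Proteasome genes were abundant in Tfh cells of both groups. Over the 6 libraries, *Psmb8* had the highest level per length, 545 ± 59.3 FPKM (SD, n = 6), followed by *Psme2* with 414 ± 48.9 and *Psme1* with 367 ± 23.5. The median member had 124 FPKM, against 15.4 for the median gene tested. *Psmc6* (31.5 ± 5.70), *Psmd9* (18.5 ± 5.42) and *Psme4* (3.70 ± 0.866) were the lowest. Of the 40 steps between neighbours in this order, *Psmb5* included, 30 were smaller than the larger SD of the pair, so most of the order was not resolved. The gap below *Psmb8* was larger than its SD, whereas that between *Psme2* and *Psme1* was not.

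**Figure D1:**
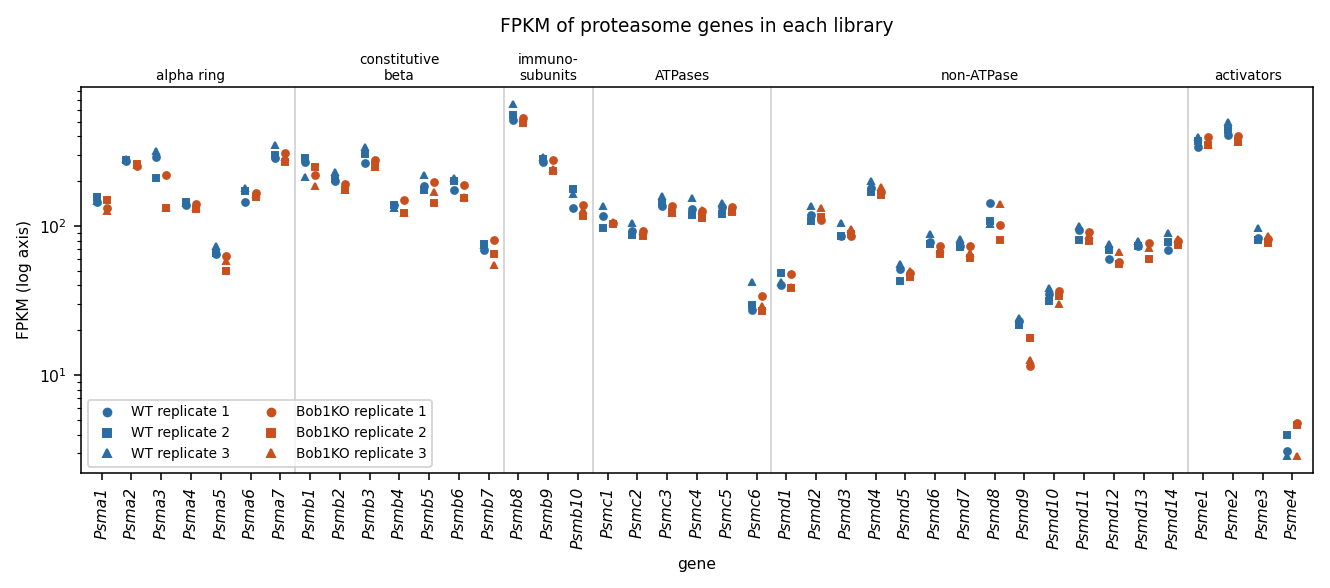
FPKM of each tested proteasome gene and of Psmb5 in each of the 6 libraries, on a log axis, grouped by role. Blue marks WT and orange Bob1KO, and the marker shape gives the replicate. Psmb8 lies highest, with 489 to 656 FPKM, and Psme4 lowest, with 2.88 to 4.78 FPKM.

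No member passed an adjusted P of 0.05 in limma, where 2 of the 9948 genes did, which is 0.0201% (1 with a replicate block, again with 0 members). At an unadjusted P below 0.05, 2 members were lower in Bob1KO, *Psma3* and *Psmd9*, and 0 were higher. The shares of all genes tested were 2.15% lower and 3.17% higher. The fold changes, all on the log2(FPKM + 1) scale, were nevertheless mostly of one sign. Of the 40 members, 38 had a log2 fold change below 0, which is 95% where the share of all genes tested was 50.6%. The median of the members was -0.12, or -7.82%, and that of all genes tested -0.003. Abundance went with this sign, and its part in the result was not tested: of 1959 genes with a mean of at least 50 FPKM, a limit chosen after the data were seen, 66.2% were below 0, with a median of -0.06.

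The values of both groups did not overlap, with Bob1KO lower, for 7 of the 40 members: *Psma2*, *Psma5*, *Psmb2*, *Psmc3*, *Psmd6*, *Psmd9* and *Psme2*. That is 17.5% of the members, where 4.82% of all genes tested and 6.38% of the genes with at least 50 FPKM lay apart in this direction. With Bob1KO higher, 0 members lay apart, and 5.87% of all genes tested did. An exact permutation test of 3 libraries against 3 gives P = 0.1 for each of these 7 genes, the smallest it can give.

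The difference was not shared by all libraries. As the median deviation of the members from their mean over the 6 libraries, on the log2 scale, the WT libraries stood at 0.01, 0.04 and 0.19 and the Bob1KO libraries at 0.002, -0.13 and -0.07. WT replicate 3 was the highest and Bob1KO replicate 1 lay beside WT replicates 1 and 2. Between libraries with the same replicate number, 20 of 40 members were lower in Bob1KO in the first pair, with a median of -0.004, 33 in the second, with -0.16, and 38 in the third, with -0.22. In genes with at least 50 FPKM, 43.5%, 57.9% and 74.2% were lower in the 3 pairs, and of all genes tested 47.7%, 46.4% and 54.9%, and the share was highest in the third pair there too. In all 3 pairs, 16 of the 40 members were lower, which is 40.0%, where the share was 13.5% of all genes tested and 18.3% of the genes with at least 50 FPKM. The myeloid sum was 4473 FPKM in Bob1KO replicate 1, where members were not lower, 82.8 in replicate 2 and 1446 in replicate 3, where they were. The part of these cells in the result was not tested.

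**Figure D2:**
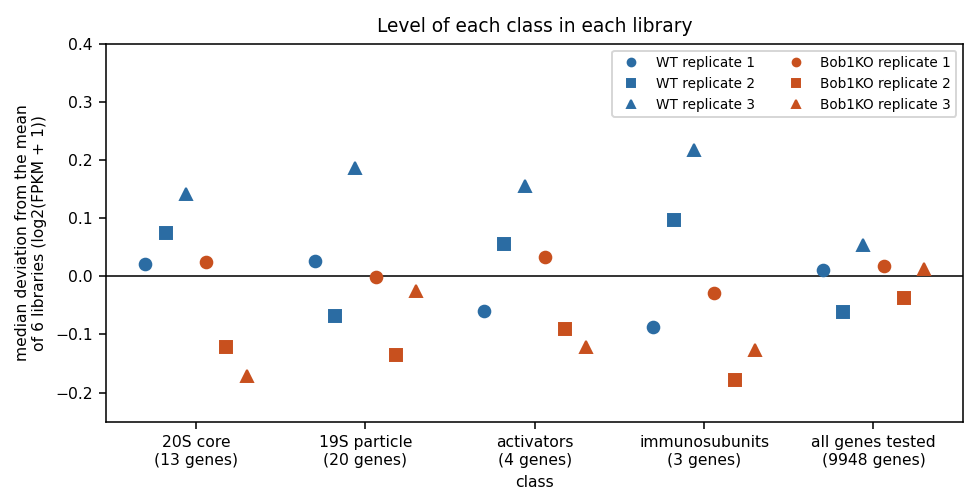
Median deviation of each class of proteasome genes from the mean of the 6 libraries, in log2(FPKM + 1), with all genes tested at the right. Over all members WT replicate 3 stands highest, at 0.19, Bob1KO replicate 2 lowest, at -0.13, and Bob1KO replicate 1 near 0.

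In the 20S core, 13 of 13 genes had a log2 fold change below 0, and 0 passed the adjusted P. The median was -0.14, with -0.11 for the alpha ring and -0.22 for the constitutive beta subunits. In the alpha ring, whose subunits close and open the channel, *Psma7* was the most abundant, with 284, 297 and 351 FPKM in WT and 309, 270.4 and 291 in Bob1KO, and its groups overlapped (log2 fold change -0.10, SE 0.124, limma adjusted P = 0.957, and -0.005 without WT replicate 3). *Psma5* had 65.3, 65.5 and 73.3 FPKM in WT and 62.9, 49.9 and 58.4 in Bob1KO. Each Bob1KO library was lower than each WT library, but the log2 fold change of -0.25 had an SE of 0.122 (adjusted P = 0.939 from limma). *Psma1*, with 145, 158 and 148 FPKM in WT and 132, 150.3 and 126 in Bob1KO, overlapped between the groups but was lower in each pair of the same number (log2 fold change -0.14, SE 0.110). The other alpha genes tested, *Psma2*, *Psma4* and *Psma6*, had log2 fold changes from -0.11 to -0.02.

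*Psma3*, the alpha subunit with the largest difference, had 292, 209 and 318 FPKM in WT and 221, 132 and 132 in Bob1KO. The groups overlapped, while each Bob1KO library was below the WT library of the same number. Its log2 fold change was -0.78 (SE 0.248, limma adjusted P = 0.895, and SE 0.19 and adjusted P = 0.599 with the replicate block). The authors' own group values, from their common assembly of transcripts, lay closer together, at 202 and 184 FPKM. The mean of the WT libraries was 1.35 times the authors' WT value and that of the Bob1KO libraries 0.878 times theirs, whereas the other members apart from *Psmd9* had ratios between 0.746 and 1.03 in WT and between 0.752 and 0.963 in Bob1KO. The size of the difference in *Psma3* therefore depends on which deposited values are read.

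Among the beta subunits without a cutting site, *Psmb2* had 201, 208 and 229 FPKM in WT and 192, 174 and 173 in Bob1KO, with no overlap. Its log2 fold change was -0.24 (SE 0.107, limma adjusted P = 0.924). *Psmb3*, the most abundant of them, had 263, 306 and 342 FPKM in WT and 279, 257 and 247 in Bob1KO. Its groups overlapped through Bob1KO replicate 1, with a log2 fold change of -0.21 (SE 0.131, limma adjusted P = 0.946). *Psmb1* had 268, 284 and 213 FPKM in WT and 221, 248 and 185 in Bob1KO, lower in each pair of the same number (log2 fold change -0.23, SE 0.161), and *Psmb4* a log2 fold change of -0.06.

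The immunosubunits were 3 of 3 below 0, with a median log2 fold change of -0.16 and 0 past the adjusted P, and the groups overlapped for each. *Psmb8*, the chymotrypsin-like immunosubunit encoded in the MHC region (chr17:34198195-34201454, GRCm38), had 510.5, 560 and 656 FPKM in WT and 526, 489 and 527 in Bob1KO. Its log2 fold change was -0.16 (SE 0.131, limma adjusted P = 0.946; exact permutation P = 0.3), and -0.06 without WT replicate 3. *Psmb9*, which takes the place of *Psmb6* and lies nearby (chr17:34182030-34187330), had 269, 284 and 289.9 FPKM in WT and 277, 234 and 243 in Bob1KO, with a log2 fold change of -0.16 (SE 0.111, limma adjusted P = 0.946). Here Bob1KO replicate 1 lay among the WT libraries and the other two Bob1KO libraries below them. *Psmb10*, the trypsin-like immunosubunit (chr8:105935728-105938392), had 131, 177 and 164 FPKM in WT and 138, 117 and 127 in Bob1KO. Its difference was the largest of the 3, at -0.29 (SE 0.142, limma adjusted P = 0.939).

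Their constitutive partners differed by similar amounts. *Psmb5* had 185, 173 and 221 FPKM in WT and 197, 143 and 168 in Bob1KO (log2 fold change -0.19, SE 0.156). *Psmb6* had 174, 200.02 and 211 FPKM in WT and 187, 155 and 158 in Bob1KO (-0.23, SE 0.128), and *Psmb7* had 69.5, 75.8 and 74.1 in WT and 80.2, 65.3 and 55.1 in Bob1KO (-0.14, SE 0.149, and -0.01 without Bob1KO replicate 3). The groups overlapped for all of them, and the limma adjusted P was 0.946 or above.

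The balance between the immunosubunits and these partners was read as a ratio within each library, which does not depend on how the library was scaled. Transcripts of the immunosubunits were in excess in every library. The *Psmb8*/*Psmb5* ratio was 2.99 ± 0.234 in WT and 3.08 ± 0.381 in Bob1KO (SD, n = 3 each). The *Psmb9*/*Psmb6* ratio was 1.45 ± 0.0894 and 1.51 ± 0.0325, and the *Psmb10*/*Psmb7* ratio 2.15 ± 0.232 and 1.94 ± 0.319. Together the immunosubunits made up 68.7% ± 0.713 of the FPKM of these 6 genes in WT and 69.0% ± 1.79 in Bob1KO. The groups overlapped in each of these ratios, and their means differed by less than the larger SD.

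**Figure D3:**
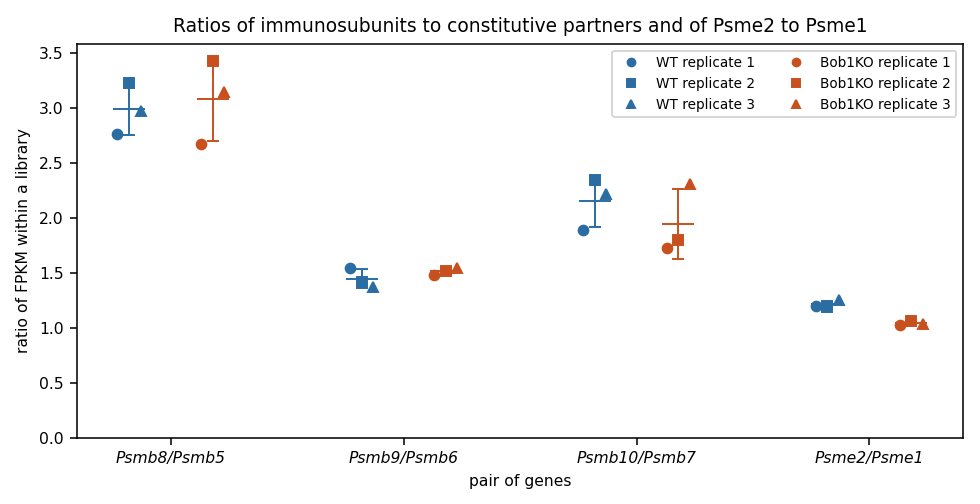
Ratio of FPKM within each library for the immunosubunits over their constitutive partners and for Psme2 over Psme1, with the mean and SD of 3 libraries per group. The immunosubunit ratios lie between 1.37 and 3.42 and overlap between the groups, whereas Psme2/Psme1 lies at 1.19 to 1.25 in WT and 1.03 to 1.06 in Bob1KO.

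The activators had a median log2 fold change of -0.05, with 3 of 4 below 0. *Psme1* and *Psme2* encode the subunits of the interferon-inducible cap and lie side by side (chr14:55578494-55581527 and chr14:55587440-55591101). *Psme1* had 342, 371 and 397 FPKM in WT and 393, 351 and 351 in Bob1KO, a log2 fold change of -0.02 against an SE of 0.115 (limma adjusted P = 0.993). *Psme2* had 411, 440.3 and 497 FPKM in WT and 403, 373 and 364 in Bob1KO. Its groups did not overlap, but by a narrow margin, and its log2 fold change of -0.24 (SE 0.12) had an adjusted P of 0.946 in limma.

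Taken as a ratio within a library, *Psme2*/*Psme1* was 1.202, 1.19 and 1.25 in WT and 1.03, 1.06 and 1.04 in Bob1KO. It was the only one of 10 ratios computed in which the groups did not overlap, and it was chosen for description after its values were seen, so no test is given. The authors' table gives *Psme2* also for a near-identical copy on another chromosome, so that reads of this gene may have been divided between them and its level is uncertain.

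*Psme3*, the nuclear activator, had 82.9, 80.7 and 96.4 FPKM in WT and 81.8, 77.3 and 85.6 in Bob1KO (log2 fold change -0.08, SE 0.111, limma adjusted P = 0.957). *Psme4*, a large nuclear activator of low level here, had 3.09, 3.99 and 2.88 FPKM in WT and 4.78, 4.60 and 2.88 in Bob1KO. It was 1 of the 2 members above 0, at 0.22, with a standard error of nearly the same size, 0.219. The other was *Psmd14*, the deubiquitinase of the 19S particle, at 0.01.

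In the 19S particle, 19 of 20 genes were below 0 and 0 passed the adjusted P, with medians of -0.11 for the 6 ATPases and -0.10 for the 14 non-ATPase genes. Among the ATPases, *Psmc3* was the most abundant, with 137, 142 and 159 FPKM in WT and 136, 124 and 122 in Bob1KO. The groups lay apart by about 1 FPKM (log2 fold change -0.19, SE 0.108, limma adjusted P = 0.946), and in WT replicate 3 the assembled row of this gene also reached beyond its end. *Psmc1*, with 117, 97.6 and 137 FPKM in WT and 105, 103 and 106 in Bob1KO, and *Psmc4*, with 129, 118 and 154 in WT and 127, 114 and 128 in Bob1KO, overlapped between the groups. Their log2 fold changes were -0.15 and -0.11. *Psmc2*, *Psmc5* and *Psmc6* lay between -0.11 and -0.04.

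Of the non-ATPase genes, *Psmd4*, a ubiquitin receptor, had the highest level, with 181, 169 and 200.4 FPKM in WT and 169.7, 161 and 183 in Bob1KO (log2 fold change -0.10, SE 0.112). *Psmd6*, a lid subunit, had 78.6, 75.9 and 88.9 FPKM in WT and 73.2, 64.8 and 69.8 in Bob1KO, without overlap (-0.22, SE 0.110, limma adjusted P = 0.942). *Psmd7*, the partner of *Psmd14* in the lid, had 74.0, 71.9 and 82.3 FPKM in WT and 73.4, 60.9 and 66.3 in Bob1KO. Its groups overlapped through Bob1KO replicate 1 (-0.18, SE 0.115).

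*Psmd9*, a chaperone for the assembly of the ATPase ring (chr5:123228190-123250126), had 23.2, 21.7 and 24.1 FPKM in WT and 11.5, 17.9 and 12.7 in Bob1KO. Each Bob1KO library was below each WT library. It had the smallest P of all members, with a log2 fold change of -0.70 (SE 0.172, limma adjusted P = 0.565). As with *Psma3*, the authors' group values were closer together, at 15.2 FPKM in WT and 13.8 in Bob1KO, and the WT libraries' mean was 1.51 times the first of them while the Bob1KO mean was 1.02 times the second. The other 10 non-ATPase genes had log2 fold changes from -0.17 (*Psmd12*) to 0.01 (*Psmd14*). Without *Psma3* and *Psmd9*, left out after the data were seen, the median of the members was -0.11 and 36 of 38 were below 0.

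**Figure D4:**
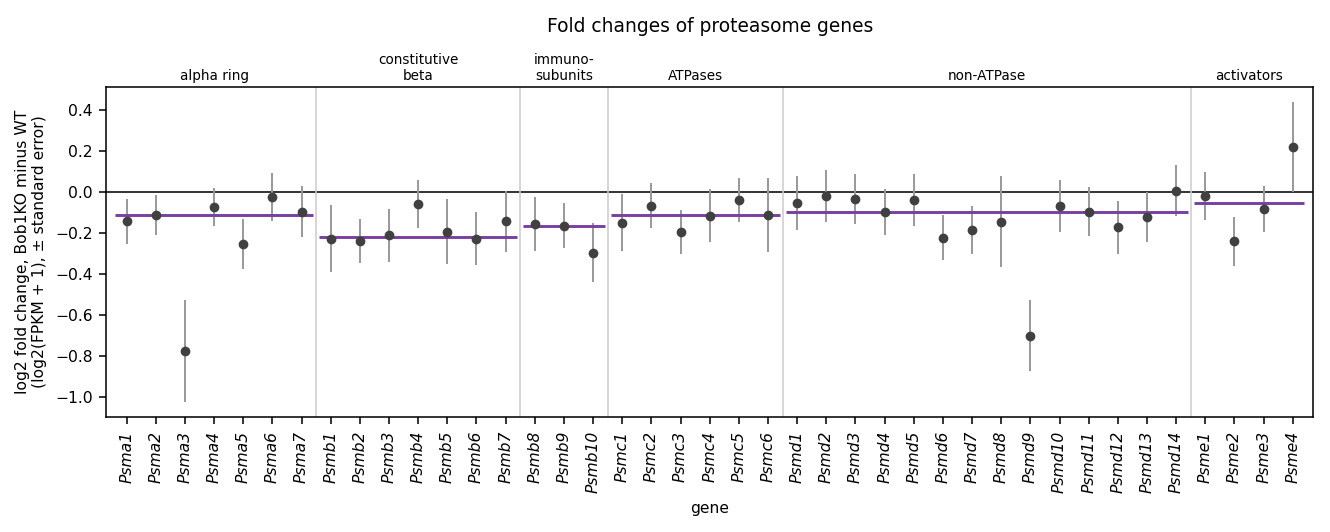
Log2 fold change of each tested proteasome gene and of Psmb5, Bob1KO minus WT on the log2(FPKM + 1) scale, with its standard error from limma. Horizontal bars give the median of each group of genes. Psma3 (-0.78) and Psmd9 (-0.70) lie lowest, and most of the others lie between -0.3 and 0.

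The 2 members that did not reach 1 FPKM are known from other tissues. *Psmb11*, the catalytic subunit of thymic cortical epithelium, had 0.0221, 0.0539 and 0.00977 FPKM in WT and 0.0428, 0.0167 and 0 in Bob1KO. *Psma8*, the alpha subunit of germ cells in the testis, was listed at 0 in 3 of the 6 libraries and had 0.117 and 0.0266 FPKM in WT replicates 2 and 3 and 0.102 in Bob1KO replicate 3. Neither entered the test, except in the alternative with no filter on low values, where 0 members passed the adjusted P in limma.

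The limits of these class medians lie in single libraries and in the scaling. Without WT replicate 3 the median of the 19S particle was -0.03 and that of all members -0.08, without Bob1KO replicate 2 they were -0.04 and -0.07, and without Bob1KO replicate 1 the 20S median was -0.24. Quantile normalization gave -0.08 for all members, -0.06 for the 19S particle and -0.09 for the immunosubunits. It turned the activator median to 0.01, as did leaving out WT replicate 3.

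Genes that work with the proteasome were read in the same fit, and none of those listed passed the adjusted P. The 5 assembly chaperones were all below 0, with a median of -0.16. *Pomp*, which assembles the core, had 243, 273 and 272 FPKM in WT and 243, 215 and 199 in Bob1KO (log2 fold change -0.26, SE 0.12, limma adjusted P = 0.931), and *Psmg4* had -0.31 (SE 0.174). Of 8 accessory factors, 5 were below 0. *Psmf1*, an inhibitor of the core, lay apart with Bob1KO lower (-0.22, SE 0.121), and *AI314180*, the mouse gene of a proteasome adaptor and scaffold, had 0.21. *Nfe2l1*, the transcription factor that raises proteasome genes when proteasome activity falls, had 19.2, 16.2 and 16.9 FPKM in WT and 22.2, 20.1 and 21.6 in Bob1KO. Each Bob1KO library was above each WT library (log2 fold change 0.28, SE 0.118, limma adjusted P = 0.921), and the related *Nfe2l2* had -0.04.

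Upstream and downstream of the particle the lists were closer to 0. The 6 ubiquitin and ubiquitin-activating genes had a median of 0.03, and *Uba1*, the main activating enzyme, had 126, 124 and 117 FPKM in WT and 139.9, 131 and 142 in Bob1KO (log2 fold change 0.17, SE 0.0964). *Uba6*, a second activating enzyme, had 0.19. The 8 shuttle and segregase genes had a median of -0.04, with *Nploc4* at -0.20. Of 11 genes of MHC class I antigen processing, 8 were below 0, with a median of -0.03. *Tap1*, the peptide transporter beside *Psmb9*, had -0.11 (SE 0.110), and *Nlrc5*, the transactivator of class I genes, 0.22 (SE 0.143). Of 7 genes of the interferon-gamma response, 5 were below 0, with a median of -0.04, with *Jak2* at 0.24 and *Ifng* at -0.25. The *Psmb9*/*Tap1* ratio was 1.81 ± 0.200 in WT and 1.74 ± 0.195 in Bob1KO (SD, n = 3 each).

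Most of the cycling genes read had fold changes of the same sign as most proteasome genes. The summed FPKM of 6 cycling genes was 195 to 228 in WT and 152 to 173 in Bob1KO, with no overlap, and 5 of the 6 were below 0. Most of this sum came from *Pcna*, *Mcm2* and *Mcm5*, and only *Pcna* lay apart by itself. *Pcna*, the clamp of DNA replication, had 108, 98.4 and 113 FPKM in WT and 79.8, 80.4 and 86.5 in Bob1KO (log2 fold change -0.37, SE 0.103, limma adjusted P = 0.783), and *Mcm2* had -0.26. *Mki67*, *Top2a* and *Ccnb1*, with means of 1.90, 5.28 and 5.43 FPKM, overlapped between the groups, at 0.01, -0.19 and -0.31. Markers of other cells were also read. The sum of 9 NK and CD8 T-cell genes was 242 to 371 in WT and 107 to 216 in Bob1KO. Of the 6 tested, 5 were below 0, with *Ccl5* at -1.72, *Nkg7* at -0.17 and *Cd8b1* at -0.15, and *Gzma* was at 0.22. *Prf1*, like *Ccl5*, lay apart, with 2.56 to 3.06 FPKM in WT and 0.907 to 1.84 in Bob1KO (log2 fold change -0.74, SE 0.219, limma adjusted P = 0.835). *Cd8a* was below 0.14 FPKM throughout. Without *Ccl5*, left out after the data were seen, the sums were 96.0 to 143 and 83.9 to 131 and overlapped. Most of what remained was *Nkg7*, at 68.3 to 125 FPKM, so this overlap says little of the other genes. B-cell genes summed to 27.8 to 43.7 and 24.6 to 81.0, mostly *Cd74* (*H2-Aa* was at 0.87 to 9.08 FPKM). Among regulatory T-cell genes *Ikzf2* had 69.7 FPKM and *Il2ra* 1.23 FPKM on average. The 3 genes of thymic cortical epithelium summed to at most 1.22 FPKM, most of it *Prss16*. The part of these cells in the proteasome result was not tested.

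Because Bob1 acts with Oct factors at the octamer, and other factors are known to act on proteasome genes, the promoters were searched for short motifs on both strands. Windows of 250 bases before to 50 after the start (RefSeq, GRCm38.p6) were matched by symbol for 36 genes, *Psmb5* included, in 39 windows. *Psma8*, *Psmb1*, *Psmb2*, *Psmb7*, *Psmc3*, *Psmd3* and *Psmd7* were without one. The octamer ATGCAAAT was in 1 of the 39 windows, that of *Psmd13*, and in 1.74% of all 32851 windows. The antioxidant response element TGACNNNGC, bound by *Nfe2l1* and *Nfe2l2*, was in 6 of the 39 windows, or 15.4%, and in 12.4% of all. The interferon-stimulated response element GAAANNGAAA was in 4, or 10.3%, and in 3.44% of all. The gamma-activated site TTCNNNGAA was in 2, or 5.13%, and in 8.30% of all. With so few windows these shares are imprecise, and their difference from all windows was not tested. No matches of 2 motifs overlapped.

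The matches below are those of genes whose library values are given, with the only octamer. *Psmc6* and *Psmd12* also held the antioxidant response element and *Psmd2* the gamma-activated site. Each line gives 30 bases, 5′ to 3′ on the strand of the gene, with the match in capitals.
Psmd13, octamer in reverse complement, chr7:140882144-140882173, plus strand: gATTTGCATcacacctagtcctcgccaaac
Psmb5, antioxidant response element, chr14:54618023-54618052, minus strand: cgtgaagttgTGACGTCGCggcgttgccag
Psmb6, antioxidant response element, chr11:70525338-70525367, plus strand: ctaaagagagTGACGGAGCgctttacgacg
Psmd9, antioxidant response element, chr5:123228149-123228178, plus strand: atctagccggTGACCCCGCccacttccaag
Psme4, antioxidant response element in reverse complement, chr11:30771758-30771787, plus strand: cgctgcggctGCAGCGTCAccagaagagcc
Psmd9, interferon-stimulated response element, chr5:123228021-123228050, plus strand: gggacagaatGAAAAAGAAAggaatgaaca
Psmd4, interferon-stimulated response element in reverse complement, chr3:95042675-95042704, minus strand: ataaccaaccTTTCCATTTCtgtggcgcct
Psme1, interferon-stimulated response element in reverse complement, chr14:55578493-55578522, plus strand: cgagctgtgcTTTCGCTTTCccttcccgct
Psmb3, interferon-stimulated response element in reverse complement, chr11:97703261-97703290, plus strand: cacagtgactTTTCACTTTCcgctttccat
Psmb8, gamma-activated site, chr17:34198088-34198117, plus strand: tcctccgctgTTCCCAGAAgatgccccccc

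The match of *Psmd13* began 249 bases before the start, and this gene, a lid subunit, had 73.1, 73.3 and 78.9 FPKM in WT and 77.3, 60.0 and 70.8 in Bob1KO, with overlap (log2 fold change -0.12, near the median of the members). The antioxidant response element began 47, 9, 31 and 7 bases before the start in *Psmb5*, *Psmb6*, *Psmd9* and *Psme4*. The interferon-stimulated element began 159, 80 and 163 bases before it in *Psmd9*, *Psmd4* and *Psmb3* and at base 10 of the transcript in *Psme1*, and the gamma-activated site of *Psmb8* 97 bases before it. A match is a description of the letters in a window and not a site of binding.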

How the data were processed

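Per the submitters' processing notes, the authors trimmed reads with cutadapt 1.2.1, aligned them to GRCm38 (mm10) with TopHat2 2.0.13 and made the deposited FPKM with Cufflinks 2.2.1, on transcripts assembled in each library separately. For the annotation version, nothing was given in the sources used here. Rows named by this assembly held 94.1% to 95.9% of the FPKM of a library. Rows were therefore assigned by position to RefSeq gene spans of the same build where they shared at least 0.5 of the joint length, with a second round for rows covering at least 0.95 of a gene still without one, and were summed per gene. This assigned 86.7% to 87.8% of the FPKM, and of rows with a gene name at least 99.3% went to that name. 6 genes with a status other than OK were left out.

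The test was limma (version 3.58.1, R 4.3.3) of log2(FPKM + 1) for genes averaging at least 1 FPKM, using a variance trend, the group as only term and two-sided P adjusted by Benjamini-Hochberg over all genes tested. This scale understates the change of low genes. Python 3.11.15 and pandas 2.3.3 made the tables. The fit was tested on simulated data with independent noise per gene and larger changes than any member had. That test does not cover small shifts shared by many genes. The deposited comparison table also holds fold changes, a test statistic, p-values and q-values, which were not used; its group FPKM are quoted as the authors' values. The files hold no counts. Depth was estimated from the step between low FPKM values, assuming fragments of 200 bases.

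Same-numbered libraries, which the labels number 1 to 3, deviated together weakly (r = 0.118, 0.132 and 0.110 across genes). Libraries of unlike number had r from -0.0893 to -0.0326. The numbers were therefore read as possible pairs only. The main fit had no term for them, and a fit with a replicate block was an alternative. Other alternatives changed the pseudocount, filter, scaling, variance model and matching, or left out libraries. Members and gene lists were chosen with earlier results of these data known. Per-library values are given for the immunosubunits with their partners, the activators, the 3 genes of smallest P and the most abundant one in each other class, and genes listed at 0; outside the rule, for up to 2 genes per list, by smallest P for pathways and by level for other cell types. *Cd8a*, *Cd8b1*, *Prf1*, *Gzma*, *Cd4*, *Mcm5*, *Mki67*, *Top2a*, *Ccnb1* and *Psmd13* were named after their values were seen. So were the members whose groups did not overlap. *Lyz2*, *Ighm* and *Paaf1* were not analysed here.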

Additional observations from a re-analysis of the deposited data

How the results depend on the processing

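Under 17 other settings, 0 members passed the adjusted P in limma in any of them, with or without *Psma3* and *Psmd9*. Of 405 values of the 24 genes described by library, 400 kept their direction and their side of the threshold, and the smallest adjusted P among them was 0.263. The exception was *Psme1*, which had 0.0488 with quantile normalization, 0.0126 with both replicate 2 libraries left out and -0.0754 to 0.0333 with 1 library left out. The count of called genes among all genes tested was 1 with a pseudocount of 0.1, 1 with a mean FPKM of at least 5 and 1 with the replicate block, which changed no other call, and 2 to 7 with 1 library left out (7 without WT replicate 1, 4 without WT replicate 3). Members lower at an unadjusted P below 0.05 were 4 with median-ratio scaling, 0 with *Psma3* and *Psmd9* left out and 1 to 5 with 1 library left out (5 without Bob1KO replicate 1, 1 without WT replicate 3 or Bob1KO replicate 2 or 3). The 20S median ranged from -0.24 to -0.11 with 1 library left out. Members below 0 numbered 33 of 40 with quantile normalization and 30 without WT replicate 3. The cause of these shifts was not tested. The files hold FPKM and no counts, so counting intervals were not computed, and members under 1 FPKM entered only the fit with no filter on low values.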
